A study of Mus musculus with 19 samples.

Results

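The question addressed here was whether loss of Dnmt3a changes RNA levels in granulocyte-monocyte progenitors (GMP) differently when the PR allele is present. The contrast was the difference between PR+/- Dnmt3a-/- and PR+/- GMP minus the difference between Dnmt3a-/- and wild-type GMP, here called the interaction. It was taken over the 13 GMP arrays among the 19 arrays of the series and over all 15781 genes measured, with the groups read from the sample titles. The groups held 4 arrays of wild-type GMP, 3 of Dnmt3a-/- GMP, 2 of PR+/- GMP and 4 of PR+/- Dnmt3a-/- GMP; the other 6 arrays hold common myeloid progenitors (CMP), which carry no PR. The labels do not write PR out, and its reading here as PML-RARA comes from the series title. Wild-type and Dnmt3a-/- samples are labelled C57Bl/6J, while no strain is given for the PR+/- samples. The promoter that drives PR, the way the Dnmt3a alleles were deleted, and the number and age of the mice are not given in the sources used here. Whether a group's arrays hold separate mice is not in the labels, so the p-values cover the spread among these samples alone, and that may be technical.

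Dnmt3a is a DNA methyltransferase that places new methyl marks on cytosines, mostly at CG dinucleotides, and its gene is often mutated in human myeloid leukaemia. PML-RARA joins the PML protein to the retinoic acid receptor alpha; it binds DNA at retinoic acid response elements, recruits corepressors and arrests granulocyte development at the promyelocyte stage in acute promyelocytic leukaemia. GMP are the progenitors that give rise to neutrophils and monocytes, and the fractions sorted as GMP can also hold precursors of basophils and eosinophils. In bulk samples, fewer cells of a type and less RNA per cell cannot be told apart.

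All levels are log2 intensities, averaged over the probe sets of a gene. Over the 13 arrays the level of the median gene was 5.35, and germline genes, taken as a measure of background, had a median of 3.34. The arrays showed the markers of the labelled cell type, with levels of 8.86 to 9.56 for the stem cell factor receptor Kit, 9.51 to 10.58 for Cd34, 8.60 to 10.12 for the Fc receptor Fcgr3 and 12.62 to 12.97 for myeloperoxidase (Mpo). The stem cell antigen Ly6a lay between 3.25 and 4.46. Genes of the immediate early and heat shock response, known to react to cell handling, were high on 4 arrays: wild-type replicates 1 and 2 and PR+/- Dnmt3a-/- replicates 1 and 2 had a list mean of 7.46 to 8.29, and the other 9 arrays 6.18 to 6.66. Kdm5d and Eif2s3y, both Y-linked, averaged 2.54 to 3.25 in all Dnmt3a-/- arrays, wild-type replicate 4 and PR+/- Dnmt3a-/- replicate 2, and 6.73 to 7.04 in the other arrays. No Dnmt3a-/- array without PR had a high and no PR+/- array with Dnmt3a a low Y-linked level, so the interaction cannot be formed within arrays of 1 kind. The PR+/- samples are titled and described in another form than those without PR. The labels name no array run, and whether the PR+/- arrays were processed with the others is not stated. A shift shared by both PR+/- groups cancels in the interaction but not in a difference between groups with and without PR. A shift shared by the 4 arrays of high immediate early genes does not cancel. They belong to wild type and PR+/- Dnmt3a-/-, which both enter the interaction with a plus sign.

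The level of Dnmt3a itself was 7.47, 7.39, 7.30 and 7.59 on the wild-type arrays and 6.06, 6.11 and 6.22 on the Dnmt3a-/- arrays. With PR it was 7.07 and 7.20 where Dnmt3a was present and 6.05, 6.26, 6.22 and 5.82 where it was deleted. The deleted and undeleted arrays did not overlap in either background. The change was -1.31 ± 0.14 (SE) without PR (limma adjusted p = 9.24e-04) and -1.05 ± 0.16 in PR+/- (adjusted p = 0.0703), and the interaction was 0.26 ± 0.21 (adjusted p = 0.573).

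In the interaction, 5 of the 15781 genes passed (limma, Benjamini-Hochberg adjusted p under 0.05), which is 0.0317% of all genes, and all 5 were lower. They were the class II antigen presentation chain H2-Eb1, the calcium-binding protein S100a4, the basophil protease Prss34, the 5-lipoxygenase Alox5 and the TGF-beta family ligand Gdf3. Each was higher on all Dnmt3a-/- than on all wild-type arrays. In PR+/- GMP the same difference was near 0 for H2-Eb1, smaller for Gdf3 and of opposite sign for the other 3. None of these differences in PR+/- passed on its own. The share of all genes whose groups do not overlap was not counted. Lack of overlap, for these and other genes, thus has no background to be read against, and the called genes were picked from these same values. An unadjusted p under 0.05 was reached by 2209 genes, 877 of them above 0 (5.56% of all genes) and 1332 below 0 (8.44%). The median interaction of all genes was 0.04, with a median standard error of 0.29, and the 5th and 95th percentiles were -0.89 and 0.71.

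H2-Eb1 encodes a beta chain of the class II molecules that present peptides to helper T cells. Its level was 5.61, 5.33, 5.36 and 5.41 in wild type, 8.35, 8.69 and 8.84 in Dnmt3a-/-, 5.39 and 6.23 in PR+/-, and 4.88, 5.47, 6.20 and 5.58 in PR+/- Dnmt3a-/-. Only the Dnmt3a-/- arrays without PR were high, and the PR+/- groups overlapped. H2-Eb1 rose by 3.20 ± 0.27 without PR (9.17-fold, adjusted p = 1.58e-04), its change in PR+/- was -0.28 ± 0.30, and the interaction was -3.47 ± 0.41 (adjusted p = 0.00769). All 5 probe sets of the gene had an interaction below 0.

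S100a4, a calcium-binding protein of motile cells, had differences of opposite sign in the 2 backgrounds. It was at 8.59, 8.57, 8.30 and 8.23 in wild type, 10.11, 10.22 and 9.52 in Dnmt3a-/-, 10.36 and 9.70 in PR+/-, and 8.67, 8.85, 7.83 and 8.68 in PR+/- Dnmt3a-/-. Either alteration alone went with a high level. The arrays with both lay below those of either alone, at 7.83 under the range of wild type and at 8.67 to 8.85 above it. S100a4 rose by 1.53 ± 0.26 without PR (adjusted p = 0.0198), its change in PR+/- was -1.52 ± 0.29 (adjusted p = 0.142), and the interaction was -3.05 ± 0.39 (8.27-fold, adjusted p = 0.00976).

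Prss34, a serine protease of basophils and mast cells, was at 9.49, 9.35, 10.05 and 9.63 in wild type and 11.60, 11.76 and 11.23 in Dnmt3a-/-. It was at 8.48 and 9.04 in PR+/- and at 7.23, 8.09, 7.97 and 7.69 in PR+/- Dnmt3a-/-. The Dnmt3a-/- arrays were the highest of the 13 and the PR+/- Dnmt3a-/- arrays the lowest, with no overlap in either background. The change was 1.90 ± 0.24 without PR (adjusted p = 0.00295) and -1.01 ± 0.27 in PR+/- (adjusted p = 0.326), and the interaction was -2.91 ± 0.36 (7.53-fold, adjusted p = 0.00843), below 0 in all 8 probe sets.

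Alox5, the enzyme that starts leukotriene synthesis, was at 5.73, 6.00, 5.99 and 5.92 in wild type, 7.73, 7.61 and 7.33 in Dnmt3a-/-, 7.17 and 7.41 in PR+/-, and 6.30, 6.61, 7.04 and 6.54 in PR+/- Dnmt3a-/-. The Dnmt3a-/- arrays lay above all wild-type arrays, and the PR+/- Dnmt3a-/- arrays below both PR+/- arrays. The change was 1.64 ± 0.17 without PR (adjusted p = 9.24e-04) and -0.66 ± 0.20 in PR+/- (adjusted p = 0.377), and the interaction was -2.31 ± 0.26 (4.95-fold, adjusted p = 0.00769). Of its 15 probe sets, 14 were below 0.

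Gdf3 was the called gene whose changes had the same sign in both backgrounds. It was at 5.20, 4.70, 4.86 and 5.48 in wild type, 7.97, 7.96 and 8.11 in Dnmt3a-/-, 6.76 and 6.63 in PR+/-, and 7.60, 7.48, 7.86 and 7.46 in PR+/- Dnmt3a-/-. The arrays without Dnmt3a were the higher ones in both backgrounds, with no overlap, and the PR+/- arrays with Dnmt3a lay between wild type and Dnmt3a-/-. Gdf3 rose by 2.95 ± 0.18 without PR (7.74-fold, adjusted p = 6.09e-06), its change in PR+/- was 0.91 ± 0.20 (adjusted p = 0.234), and the interaction was -2.04 ± 0.27 (adjusted p = 0.0132). Its interaction was -3.01 when the median of its 3 probe sets was taken in place of their mean.

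**Figure D1:**
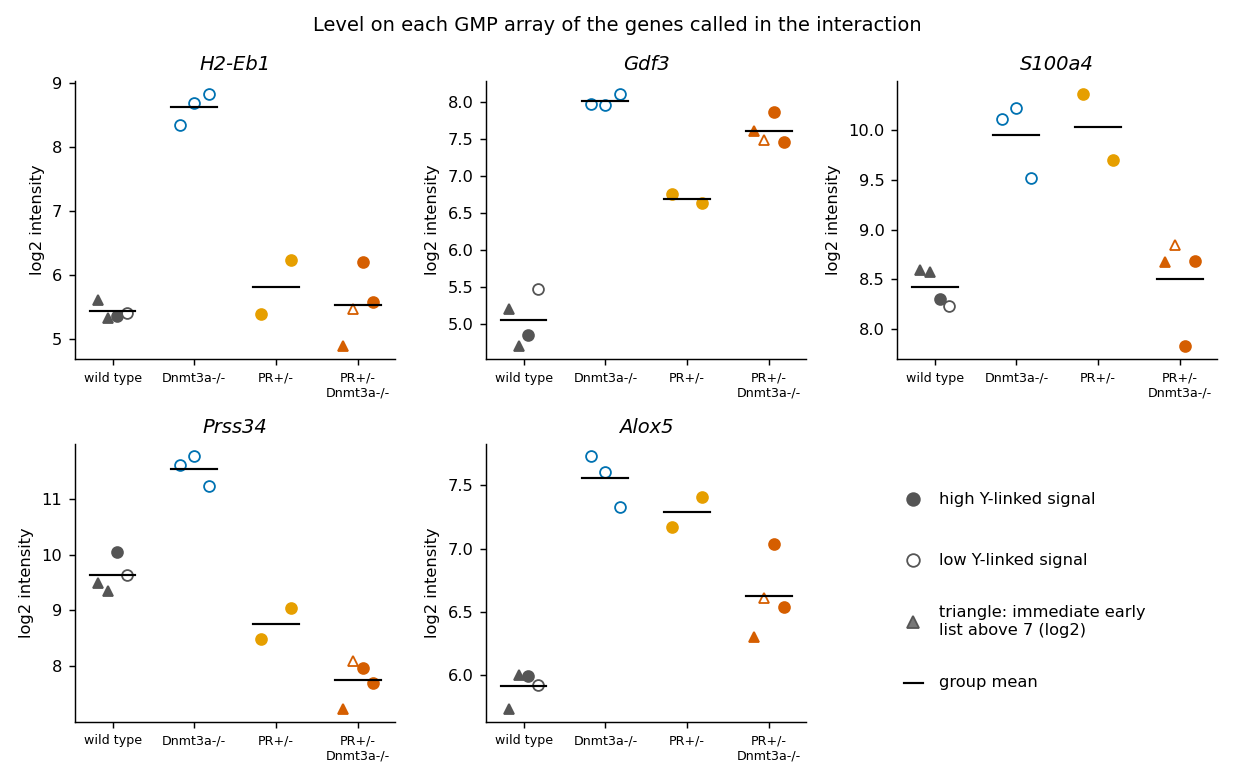
Log2 intensity (vertical axis) on each of the 13 GMP arrays by group (horizontal axis) for the 5 genes called in the interaction; points are arrays, lines are group means, open points are arrays of low Y-linked signal and triangles are the 4 arrays with an immediate early list mean above 7. The Dnmt3a-/- arrays lie above all wild-type arrays in each gene, while in PR+/- GMP only Gdf3 is higher on all Dnmt3a-/- arrays than on both arrays with Dnmt3a.

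The stretch upstream of the start is shown because Dnmt3a methylates CG dinucleotides and PML-RARA binds response elements. RefSeq promoters (build GRCm38.p6, not the mm9 named for the arrays) were listed for 4 of the 5 called genes, without Gdf3. The 200 bases before the start are given 5′ to 3′ on the gene's strand, with capitals for CG, for the receptor half-site AGGTCA, for CCAAT and for the Ets-type site GAGGAA, each motif searched on both strands. H2-Eb1 (chr17:34305667-34305866, plus strand) held no CG and 2 CCAAT motifs, an element that class II promoters are known to use. S100a4 (chr3:90603570-90603769, plus strand) held 1 CG and 1 AGGTCA, Prss34 (chr17:25298194-25298393, plus strand) held 2 CG and no other motif, and Alox5 (chr6:116461179-116461378, minus strand) held 5 CG and 1 GAGGAA.
H2-Eb1: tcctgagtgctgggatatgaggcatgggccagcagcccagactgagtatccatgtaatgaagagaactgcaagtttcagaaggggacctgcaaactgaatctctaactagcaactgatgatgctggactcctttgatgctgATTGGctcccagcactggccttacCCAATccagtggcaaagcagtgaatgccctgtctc
S100a4: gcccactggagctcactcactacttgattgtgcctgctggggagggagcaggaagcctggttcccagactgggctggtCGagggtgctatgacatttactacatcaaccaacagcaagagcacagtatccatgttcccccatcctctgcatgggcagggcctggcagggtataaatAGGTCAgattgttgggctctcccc
Prss34: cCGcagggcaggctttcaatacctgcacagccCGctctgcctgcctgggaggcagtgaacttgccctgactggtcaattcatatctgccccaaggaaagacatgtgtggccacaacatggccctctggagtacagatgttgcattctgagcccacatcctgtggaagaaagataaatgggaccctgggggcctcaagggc
Alox5: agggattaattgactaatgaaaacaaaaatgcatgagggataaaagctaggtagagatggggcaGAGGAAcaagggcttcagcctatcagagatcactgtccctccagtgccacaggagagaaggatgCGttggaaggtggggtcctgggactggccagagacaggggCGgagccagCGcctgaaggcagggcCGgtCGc
Over the 12609 promoters of the same length the median number of CG was 10, and 25.8% held 3 or fewer. AGGTCA was found in 9.34%, CCAAT in 31.9% and GAGGAA in 18.3% of them. A match in such a window is a description of its letters, and no methylation or binding was measured in these samples.

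Most genes called for loss of Dnmt3a without PR had smaller values in PR+/- GMP. The difference without PR passed for 101 genes (0.640% of all genes), of which 70 rose and 31 fell, and 2441 genes reached an unadjusted p under 0.05. In PR+/- GMP no gene passed (0% of all genes), with a smallest adjusted p of 0.0606 and 1458 genes at an unadjusted p under 0.05. The 2 contrasts share no arrays. Of the 101 genes, 66 had the same sign in PR+/- (65.3%, against 45.5% of all genes), and 98 had a smaller size there. A smaller size is in part set by the choice, since the 101 genes were picked for their change without PR. The median change of the 70 higher genes was 1.23 without PR and 0.11 in PR+/-, and 42 of them kept their sign; for the 31 lower genes it was -0.87 and -0.32, and 24 kept their sign. At an unadjusted p under 0.05 in PR+/-, 32 of the 101 had the same sign and 8 the opposite sign, against 638 and 820 of all 15781 genes.

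Among the largest rises without PR, class II genes and the chitinase-like gene Chil3 were near or below 0 in PR+/-. The class II chain H2-Aa rose by 3.67 without PR and had a difference of 0.05 in PR+/-. The fatty acid receptor Gpr84 rose by 2.45 and had -0.25. Chil3, a product of maturing neutrophils, was at 7.44, 7.17, 7.36 and 7.33 in wild type, 10.61, 9.86 and 10.61 in Dnmt3a-/-, 9.10 and 9.17 in PR+/-, and 5.52, 5.98, 8.89 and 8.25 in PR+/- Dnmt3a-/-. The 2 low values in the last group are the arrays of high immediate early genes. Its interaction of -5.01 ± 0.95 did not pass (adjusted p = 0.118).

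Some genes had values of like size in both backgrounds. Of the 101 genes, 12 had at least 3/4 of their change in PR+/-, among them Dnmt3a and the lectin-like receptor Klrb1f (-1.48 without PR and -1.16 in PR+/-, interaction 0.31 ± 0.39). The uncharacterised gene 1700006J14Rik was at 6.33, 6.16, 6.00 and 5.22 in wild type, 9.19, 9.26 and 7.65 in Dnmt3a-/-, 6.55 and 7.13 in PR+/-, and 8.04, 9.53, 8.98 and 9.70 in PR+/- Dnmt3a-/-. All arrays without Dnmt3a were above all arrays with it. Its change was 2.77 without PR (adjusted p = 0.0178) and 2.22 in PR+/- (adjusted p = 0.234). Others kept the sign with a smaller value in PR+/-. Among the genes that fell without PR, the receptor tyrosine kinase Met had -1.42 without PR and -0.71 in PR+/-. Ly86, which pairs with the surface protein Cd180, had -1.68 and -0.92. The growth factor Nrg1 fell by 2.10 without PR and had -0.54 in PR+/-.

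**Figure D2:**
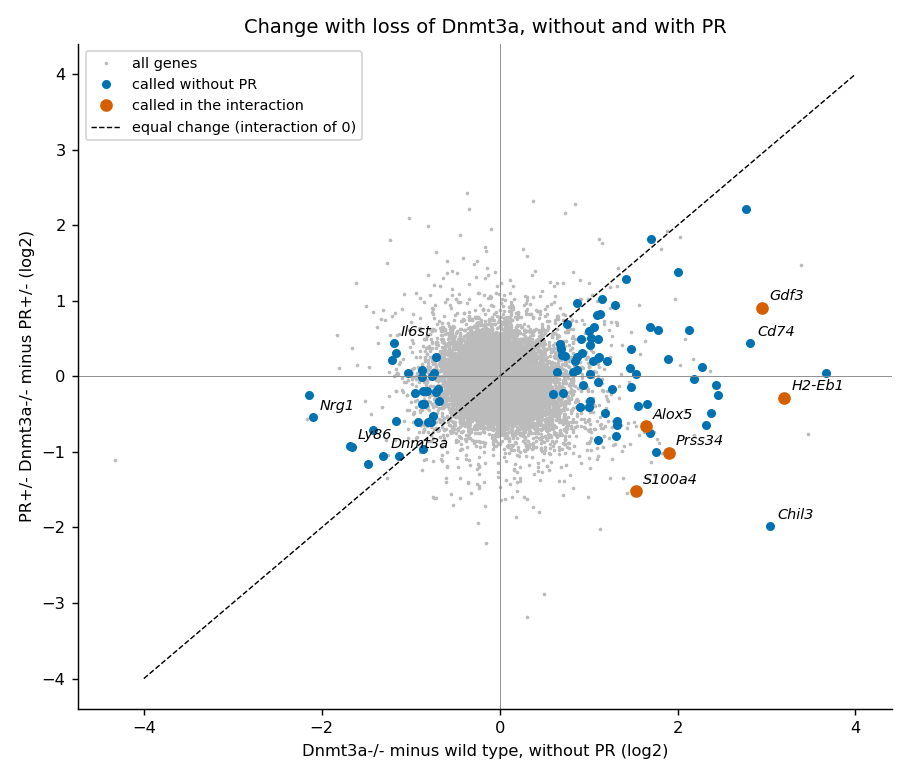
Log2 change with loss of Dnmt3a without PR (horizontal axis) against the same change in PR+/- GMP (vertical axis); each point is a gene, blue the 101 genes called without PR and orange the 5 called in the interaction, and the dashed line marks equal changes. Most blue points on the right lie below the dashed line, with S100a4, Prss34 and Alox5 below 0 in PR+/-.

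Class II antigen presentation genes had interactions below 0 throughout. All 11 measured members were below 0, 1 passed (H2-Eb1) and 7 had an unadjusted p under 0.05, with a median of -1.33 against 0.04 for all genes. The list mean was 6.29 to 6.71 in wild type, 7.62 to 7.80 in Dnmt3a-/-, 6.22 to 6.85 in PR+/- and 5.45 to 6.58 in PR+/- Dnmt3a-/-. Cd74, the invariant chain that guides class II molecules, was at 5.20 to 5.69 in wild type and at 8.14, 8.30 and 8.42 in Dnmt3a-/-. In PR+/- it was at 4.59 and 6.05, and in PR+/- Dnmt3a-/- at 5.13, 5.97, 6.06 and 5.87. The Dnmt3a-/- arrays without PR stood apart, and the interaction was -2.38 ± 0.46 (adjusted p = 0.118). It was -3.62 ± 0.88 for H2-Aa, -2.22 ± 0.56 for H2-Ab1 and -1.89 ± 0.51 for H2-Oa, a chain that modulates peptide loading, none of which passed. Without the 4 arrays of high immediate early genes the median of the list was -0.91 and 9 of 11 members were below 0. Dendritic cells carry class II molecules, and the 16 dendritic cell genes measured had a median of 0.04, or -0.36 over the 5 that remained without dim genes. At an unadjusted p under 0.05, 4 were lower and 3 higher, and none passed. Their list mean was 4.79 to 4.94 in wild type, 5.04 to 5.14 in Dnmt3a-/-, 4.89 to 4.97 in PR+/- and 4.86 to 4.94 in PR+/- Dnmt3a-/-. The Dnmt3a-/- arrays without PR were the highest here too, by a small margin. The median change of the 16 genes without PR was however -0.01, with 8 of the 16 above 0. The part of dendritic cell genes in the class II values was not tested.

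The 3 dendritic cell genes called higher without PR had interactions below 0, as did 68 of all 70 genes called higher there. This sign is in part set by the choice, since the change without PR is subtracted in the interaction. Id2, a regulator of dendritic and lymphoid development, rose by 1.69 and had an interaction of -2.43 ± 0.49 (adjusted p = 0.118). The dendritic cell lectin Clec9a rose by 1.21 and had 0.21 in PR+/- (adjusted p of the interaction 0.256). The RNA sensor Tlr3 rose by 1.11 and had -0.07 in PR+/-, with an interaction of -1.18 ± 0.29 (adjusted p = 0.169). In the groups other than Dnmt3a-/- both Clec9a and Tlr3 were lower. No array there reached the lowest Dnmt3a-/- array, which was at 4.48 for Clec9a and at 3.79 for Tlr3. The Tlr3 means of wild type (3.07), PR+/- (3.01) and PR+/- Dnmt3a-/- (2.93) lay under the background of 3.34. So did the PR+/- mean of Clec9a (3.19). With group means under the background raised to it, the interaction was -0.84 for Tlr3 and -1.15 for Clec9a.

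Secondary granule and neutrophil maturation genes, which are switched on late in granulocyte development, had the lowest median of the lists examined. All 19 members were above 0 without PR, below 0 in PR+/- and below 0 in the interaction; none passed over all genes and 18 had an unadjusted p under 0.05. Their median change was 1.03 without PR and -0.60 in PR+/-, and the median interaction was -1.62. The list mean was 8.44, 8.24, 8.16 and 8.18 in wild type, 9.96, 9.10 and 9.18 in Dnmt3a-/-, 9.24 and 9.14 in PR+/-, and 8.15, 8.23, 8.95 and 8.85 in PR+/- Dnmt3a-/-. Both single alterations lay above wild type, and the arrays with both lay below the PR+/- arrays. The median lay between -1.86 and -1.26 without any 1 array and was -1.43 without the 4 arrays of high immediate early genes, with all 19 members below 0 in each of these fits.

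The members of this list differed in size. The antimicrobial peptide Camp was at 9.71 to 10.14 in wild type, 11.08 to 12.05 in Dnmt3a-/-, 10.67 and 11.48 in PR+/-, and 8.61, 8.92, 11.24 and 10.99 in PR+/- Dnmt3a-/-. The low values in the last group are again replicates 1 and 2, and the interaction was -2.83 ± 0.83 (adjusted p = 0.215). Lcn2, an iron-scavenging granule protein, had an interaction of -2.32 ± 0.49 (adjusted p = 0.139) and Cebpe, the transcription factor of secondary granules, of -2.34 ± 0.57 (adjusted p = 0.165). Padi4, the enzyme that citrullinates histones in neutrophils, was at 4.59 to 5.36 in wild type, 5.81 to 6.16 in Dnmt3a-/-, 5.17 and 5.24 in PR+/- and below both PR+/- values, with a lowest of 4.72, in PR+/- Dnmt3a-/-. Its groups did not overlap in either background, all 16 probe sets were below 0, and the interaction was -1.33 ± 0.26 (adjusted p = 0.118). The chemokine receptor Cxcr2 had the value -1.07 ± 0.55.

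**Figure D3:**
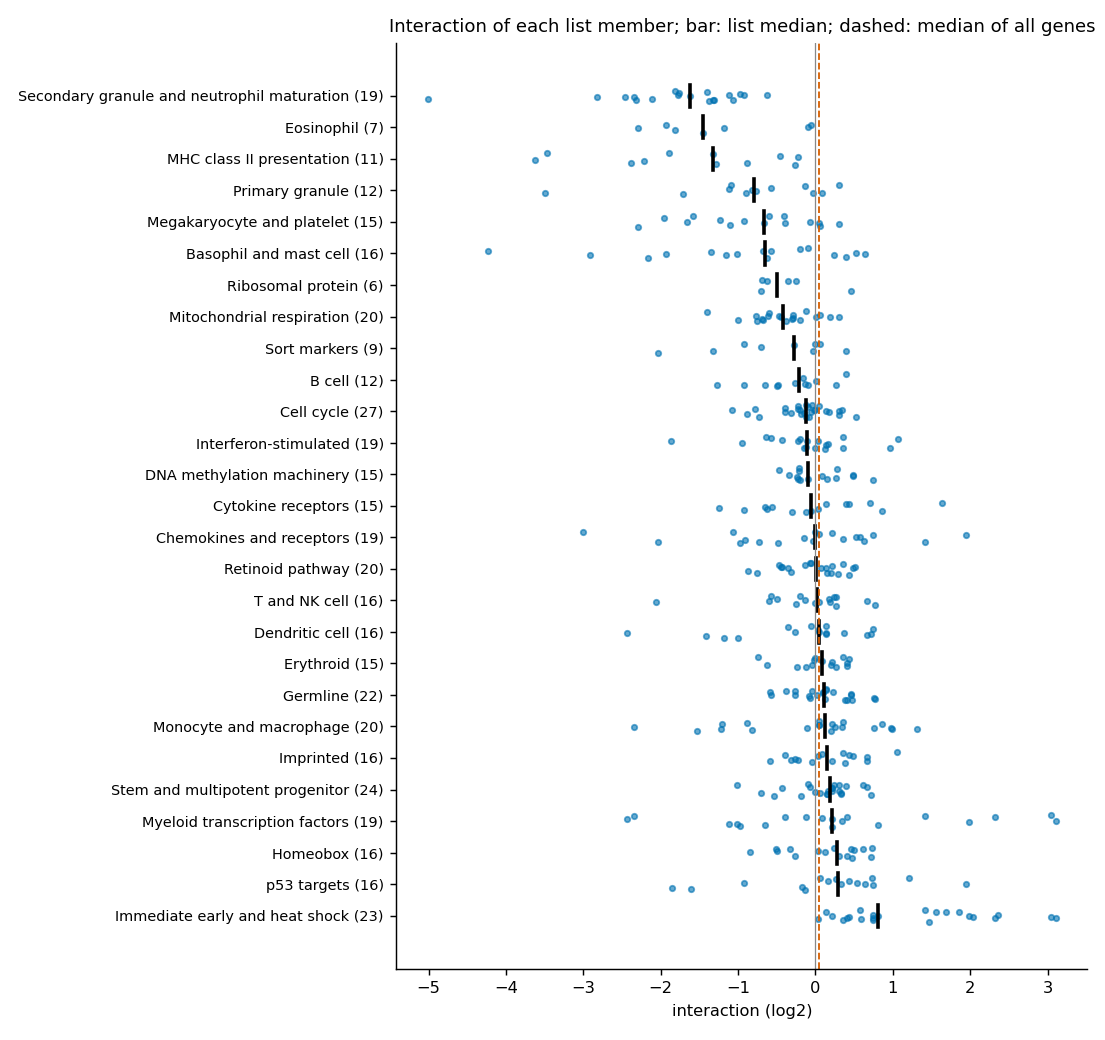
Interaction (log2, horizontal axis) of each measured member of 27 gene lists (rows, number of members in brackets); points are genes, black bars list medians and the dashed line the median of all genes, 0.04. The secondary granule list lies wholly below 0 (median -1.62) and the immediate early list wholly above it (0.81), and the latter is high on 4 of the 13 arrays.

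Basophil and mast cell genes had a median interaction of -0.65 over 16 members, with 1 called (Prss34) and 8 lower and 1 higher at an unadjusted p under 0.05. Without PR 10 members were above 0 and 5 passed as higher, against 0.640% of all genes that passed in either direction. The list mean was 6.85 to 7.20 in wild type and 7.66 to 8.05 in Dnmt3a-/-, 7.90 and 7.99 in PR+/-, and 7.66 to 8.16 in PR+/- Dnmt3a-/-. All 3 altered groups lay above wild type and overlapped each other. The mast cell carboxypeptidase Cpa3 was at 7.10 to 8.63 in wild type, 8.82 to 9.74 in Dnmt3a-/-, 11.64 and 11.24 in PR+/- and 10.76 to 11.37 in PR+/- Dnmt3a-/-. The basophil protease Mcpt8 was at 9.26 to 10.46 in wild type, 11.01 to 11.50 in Dnmt3a-/-, 11.77 and 11.67 in PR+/-, and 11.41 or more in PR+/- Dnmt3a-/-. Prss34 did not follow these genes, since both PR+/- groups were below wild type; the difference between Prss34 and the other members was not tested. The interaction was -1.93 ± 0.48 for Cpa3, -1.35 ± 0.37 for Mcpt8 and -2.17 ± 0.58 for the IgE receptor chain Ms4a2, and none of the 3 passed.

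Fcer1a, the chain that binds IgE, was at 4.29 to 5.19 in wild type, 8.51, 8.37 and 7.67 in Dnmt3a-/-, 6.15 and 7.22 in PR+/-, and 4.26, 4.18, 7.54 and 7.73 in PR+/- Dnmt3a-/-. The last group was split between the low replicates 1 and 2 and the high replicates 3 and 4. The interaction of Fcer1a was -4.23 ± 1.17 and did not pass (adjusted p = 0.199).

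Megakaryocyte and platelet genes had a median interaction of -0.66 over 15 members, none called and 6 lower at an unadjusted p under 0.05. All 15 were above 0 without PR, with a median of 0.79, and the median in PR+/- was 0.06. The integrin Itga2b was at 5.60 to 6.15 in wild type, 6.63 to 7.33 in Dnmt3a-/-, 8.53 and 7.75 in PR+/-, and 7.13 to 7.65 in PR+/- Dnmt3a-/-. It was highest in PR+/- with Dnmt3a, the PR+/- groups did not overlap, and its interaction of -1.96 ± 0.34 did not pass (adjusted p = 0.0913). The tetraspanin Cd9 had -1.66 ± 0.34 (adjusted p = 0.118), and the adhesion receptor Selp, which rose by 1.06 without PR and had 0.66 in PR+/-, had -0.41 ± 0.30.

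The median interactions of eosinophil and primary granule genes changed when the 4 arrays of high immediate early genes were left out. The 7 eosinophil genes had a median of -1.46, which was 0.29 without these arrays. The major basic protein Prg2 was at 10.51 and 10.26 on wild-type replicates 1 and 2 and at 10.63 and 10.31 on PR+/- Dnmt3a-/- replicates 1 and 2, and at 11.60 to 12.25 on the other 9 arrays. The 12 primary granule genes had a median of -0.79 with 7 lower at an unadjusted p under 0.05, and of -0.29 without these arrays. The lysozyme Lyz2 had the value -1.71 ± 0.37 (adjusted p = 0.144), and Mpo, the main primary granule enzyme, was nearly level (-0.13 ± 0.18). The part of the immediate early genes in these values was not tested beyond these fits.

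**Figure D4:**
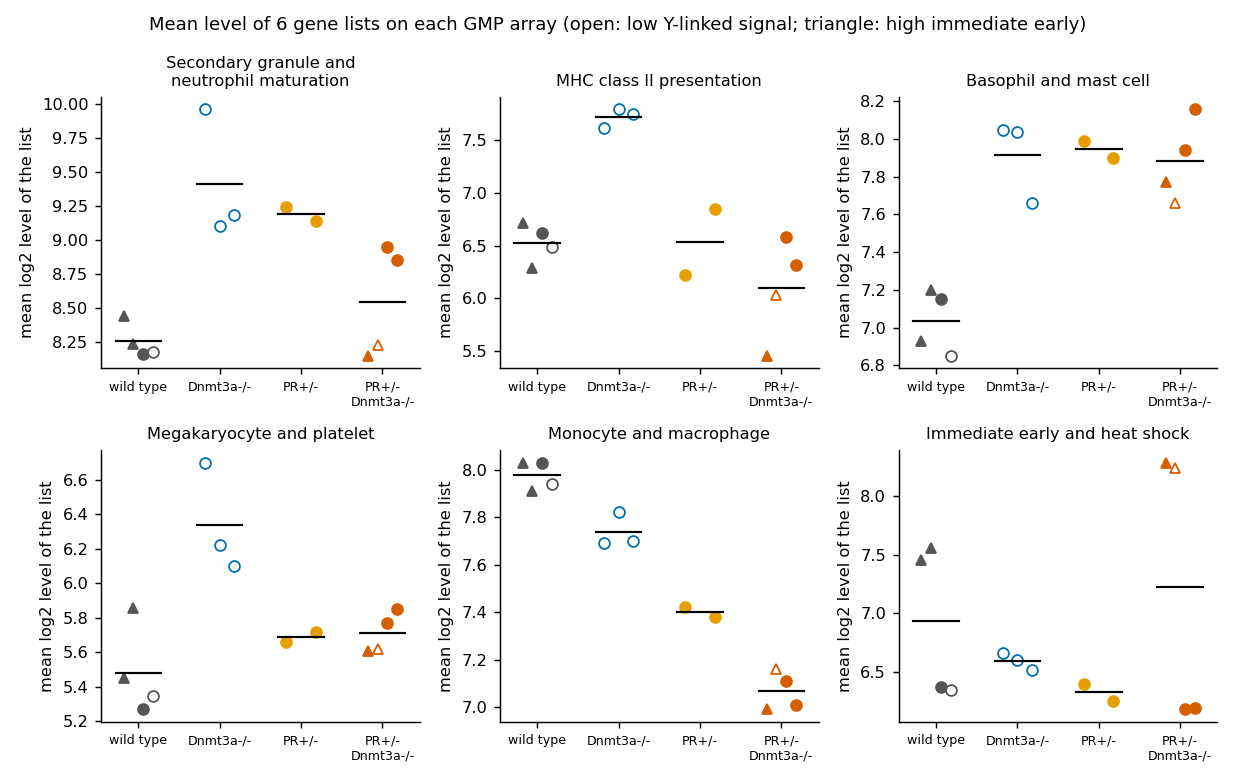
Mean log2 level of 6 gene lists (vertical axes) on each GMP array by group (horizontal axis); points are arrays, lines group means, open points low Y-linked signal and triangles the 4 arrays of high immediate early genes. Secondary granule genes are higher in Dnmt3a-/- and PR+/- than in wild type, and in PR+/- Dnmt3a-/- replicates 1 and 2 are at 8.15 and 8.23 and replicates 3 and 4 at 8.95 and 8.85.

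Next to the called genes on the lower side, the matrix protein fibronectin (Fn1) was at 7.11, 5.59, 6.07 and 6.29 in wild type, 7.35, 7.61 and 7.62 in Dnmt3a-/-, 5.61 and 5.37 in PR+/-, and 4.39, 4.60, 4.33 and 4.28 in PR+/- Dnmt3a-/-. The groups did not overlap in either background, 50 of 51 probe sets were below 0, and the interaction of -2.35 ± 0.40 did not pass (adjusted p = 0.0913). The membrane protein gene Tmem205 (-1.63 ± 0.27) and the sensory receptor gene Mrgpra2 (-1.62 ± 0.27) had an adjusted p of 0.0796. The interferon-inducible gene Samd9l had -1.96 ± 0.34 (adjusted p = 0.0913), the ubiquitin ligase Rnf25 -1.41 ± 0.26 and the erythroid and megakaryocyte factor Nfe2 -1.05 ± 0.20 (both adjusted p = 0.118).

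On the higher side no gene passed. The 12 genes of smallest p named there were all below 0 for loss of Dnmt3a without PR. Their choice sets this in part, since the change without PR is subtracted in the interaction. That change passed for 5 of them: Il6st, Nrg1, Acp1, Vdr and Rasa4. Over all genes 0.640% passed, but the choice of the 12 sets the number of calls in part too. The 2 shares therefore cannot be read as an enrichment. Il6st, the signalling chain shared by the interleukin 6 family of receptors, was at 8.20, 8.44, 8.13 and 8.11 in wild type, 7.04, 7.26 and 6.78 in Dnmt3a-/-, 6.78 and 6.75 in PR+/-, and 7.63, 7.42, 6.76 and 7.01 in PR+/- Dnmt3a-/-. Wild type was high and stood apart from the other 3 groups. Il6st fell by 1.19 without PR, its change in PR+/- was 0.44, and the interaction was 1.63 ± 0.30 (adjusted p = 0.118), above 0 in all 18 probe sets. Nrg1 (1.56 ± 0.31) and the phosphatase Acp1 (1.44 ± 0.29) had the same adjusted p, and the vitamin D receptor Vdr had 1.47 ± 0.33 (adjusted p = 0.151). The adhesion protein Ctnnd1 differed from these in that its value, 0.90 ± 0.19 (adjusted p = 0.127), came from low PR+/- arrays (5.68 and 5.68 against 6.37 to 6.91 on the other 11 arrays). The histamine receptor Hrh1 had 0.87 ± 0.20, the Ras regulator Rasa4 0.95 ± 0.22 and the myosin Myo19 1.17 ± 0.28, and these did not pass. Also among the 12 and not called were Nfxl1 (2.76 ± 0.61), Sprr4 (2.43 ± 0.53), Acot6 (2.19 ± 0.45) and Angptl7 (0.88 ± 0.19). Nfxl1 and Acot6 rest on 2 probe sets each and Sprr4 on 1. The PR+/- mean of Nfxl1 (3.08) lay under the background of 3.34.

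Monocyte and macrophage genes split in both directions, with 6 lower and 4 higher at an unadjusted p under 0.05 among 20 members and a median of 0.12. Csf1r, which binds the colony-stimulating factor of macrophages, was at 8.29 to 8.68 in wild type, 7.51 to 7.71 in Dnmt3a-/-, 6.71 and 6.92 in PR+/-, and 6.54 to 7.15 in PR+/- Dnmt3a-/-. It fell by 0.87 without PR, had -0.01 in PR+/-, and had an interaction of 0.86 ± 0.25 (adjusted p = 0.215). The transcription factor Zeb2 (0.99 ± 0.25) and the B cell and myeloid surface protein Cd180 (1.31 ± 0.39) were also above 0, and Cd68 (-1.21 ± 0.30) and the galectin Lgals3 (-1.53 ± 0.44) below it, none called. The transglutaminase subunit F13a1 fell by 0.80 without PR and had -0.60 in PR+/-.

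Most lymphoid marker genes were low, with exceptions. B cell genes had a list mean of 4.44 to 5.04 and T and NK cell genes of 4.06 to 4.51 over the 13 arrays, with median interactions of -0.21 and 0.02. The B cell receptor chain Cd79b was at 7.43 to 9.16, with an interaction of -0.65 ± 0.38 (adjusted p = 0.446). Thy1, a surface protein of T cells that other blood cells can carry, was at 5.11 to 5.61 in wild type, 6.61 to 7.02 in Dnmt3a-/-, 10.87 and 9.60 in PR+/-, and 8.91 to 10.36 in PR+/- Dnmt3a-/-. It was far higher in both PR+/- groups than in the others, and its interaction of -2.06 ± 0.50, the lowest of the T and NK list, did not pass (adjusted p = 0.165). The T cell receptor chain Cd3e lay between 4.59 and 5.52 on the 13 arrays. Mitochondrial respiration genes had a median of -0.42, with 16 of 20 below 0 and 5 lower at an unadjusted p under 0.05. Their list mean was 9.21 and 9.19 on PR+/- Dnmt3a-/- replicates 1 and 2, the arrays of high immediate early genes. On replicates 3 and 4 it was 9.67 and 9.66, beside 9.63 and 9.69 on the PR+/- arrays. Among 15 cytokine receptors the median was -0.06, and the lowest value was that of the interleukin 3 receptor chain Il3ra (-1.25 ± 0.33, adjusted p = 0.194).

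DNA methylation genes and retinoid pathway genes showed no call. The 15 DNA methylation genes had a median of -0.09. Dnmt3b, the other methyltransferase that sets new marks, was at 6.13 to 6.51 in wild type, 6.41 to 6.56 in Dnmt3a-/-, 5.63 and 5.86 in PR+/-, and 6.34 to 6.65 in PR+/- Dnmt3a-/-. It was lowest in PR+/- with Dnmt3a, without overlap, and its interaction of 0.48 ± 0.21 did not pass (adjusted p = 0.329). The 20 retinoid pathway genes had a median of 0.00, from -0.87 to 0.51, with 2 lower at an unadjusted p under 0.05. These were the retinoid X receptor Rxrb (-0.87 ± 0.38) and the retinol dehydrogenase Dhrs9 (-0.75 ± 0.30). Outside the rule for named genes, Rara and Pml were looked up as the partners of the fusion, with interactions of -0.44 ± 0.32 and -0.32 ± 0.21. Stem and multipotent progenitor genes (24 members, median 0.19) and cell cycle genes (27, median -0.12) were near the median of all genes.

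The 5 calls were recomputed under 29 alternatives. Each of the 5 genes stayed below 0 in all 29. Alox5 and H2-Eb1 passed in 27, S100a4 in 26, Prss34 in 25 and Gdf3 in 20. None of the 5 passed without the 4 arrays of high immediate early genes, with adjusted p of 0.0872 for Alox5, H2-Eb1, Prss34 and S100a4 and of 0.187 for Gdf3. Their values there were -2.10, -3.16, -2.62, -3.46 and -1.88 in that order. In that fit of 9 arrays 4 other genes passed, named here because they were called: the chemokine receptor Ccr4 (2.76), the granule protease Ctsg (-4.66), Fn1 (-2.54) and Chil3 (-3.58). Adding the Y-linked signal to the model, limma called no gene (2691 at an unadjusted p under 0.05), with values of -3.50 for H2-Eb1, -2.99 for S100a4, -2.74 for Prss34, -2.29 for Alox5 and -1.91 for Gdf3 and adjusted p between 0.0502 and 0.0638. Single arrays ended calls too: S100a4 without PR+/- replicate 1 (adjusted p = 0.0921), Prss34 without PR+/- replicate 2 (adjusted p = 0.0631), and Gdf3 in 4 such fits, leaving out a PR+/- array or Dnmt3a-/- replicate 2 or 3, with adjusted p of 0.0517 to 0.109.

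**Figure D5:**
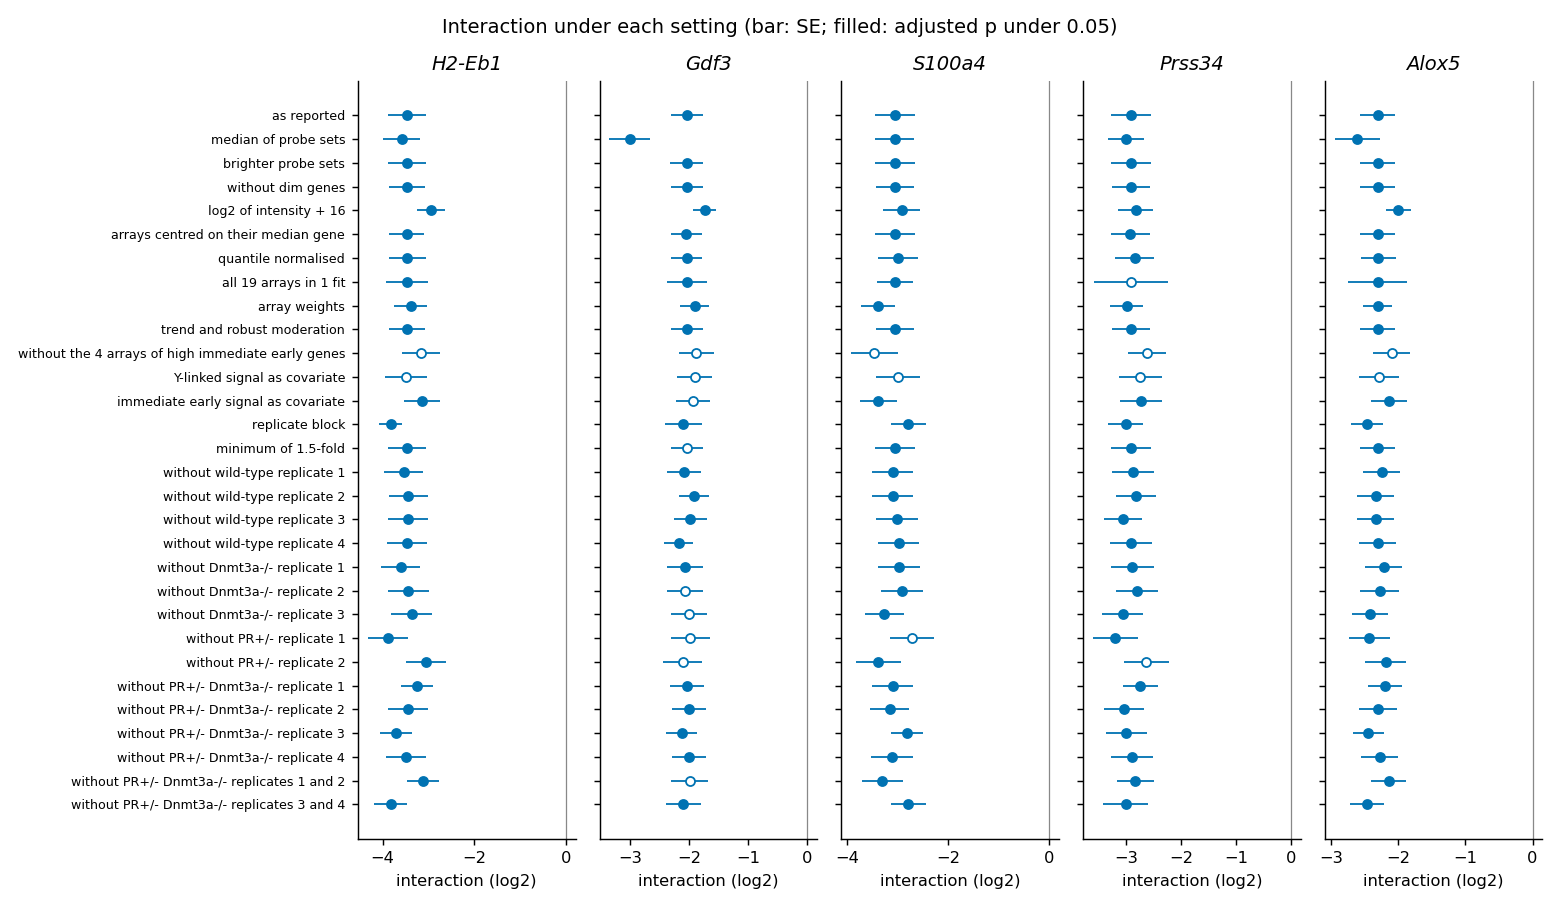
Interaction (log2, horizontal axes) of the 5 called genes under the reported fit and 29 alternatives (rows); points are estimates, bars standard errors, filled points have an adjusted p under 0.05. All points lie below 0, from -3.89 to -2.94 for H2-Eb1 and from -3.01 to -1.74 for Gdf3, and all 5 points are open without the 4 arrays of high immediate early genes and with the Y-linked covariate.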

How the data were processed

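Total RNA of sorted progenitors was amplified, labelled with biotin and hybridised to mouse exon arrays, per the labels. The deposited table holds 1 intensity for each of 194293 probe sets and array in linear units between 1.34 and 16208, with array medians of 53.0 to 56.8. The processing notes of the submitters list RMA, Partek and mm9 but give them no role or version. The log2 of the deposited intensities was averaged over the probe sets that carry 1 gene symbol alone (179496 probe sets, 15781 genes, median 9 per gene; 1328 carry several symbols and 13469 none). Of the symbols, 2039 were updated through a RefSeq gene table. Dim genes were kept.

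The 13 GMP arrays were fitted with limma 3.58.1 in R 4.3.3 (lmFit and eBayes, 1 mean per group, two-sided, Benjamini-Hochberg over all genes, threshold 0.05; 9 residual degrees of freedom), checked on simulated data. The number of arrays limits the precision. The members and lists were chosen with earlier results of these data known. Named genes are Dnmt3a, the 12 of smallest p in each direction of the interaction with a group mean of at least 5, the 8 largest calls each way per Dnmt3a contrast, and list members called or among the 6 largest interactions. Replicate numbers of PR+/- samples come from the titles; the others follow accession order. PR+/- and PR+/- Dnmt3a-/- arrays share numbers 1 and 2, and their deviations from the group means correlated with r of 0.0774 and 0.0169. The deviations of 2 PR+/- arrays are exact opposites, so this check cannot decide whether the numbers mark pairs. The labels name no pairs, and no pairing was used in the reported fit. Alternatives varied the summary, scaling, covariates, moderation and arrays.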

Additional observations from a re-analysis of the deposited data

Results flagged for a closer look

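The change with loss of Dnmt3a differed between GMP with and without PR in 5 genes by the test of the difference itself (limma, adjusted p under 0.05): H2-Eb1 by -3.47, S100a4 by -3.05, Prss34 by -2.91, Alox5 by -2.31 and Gdf3 by -2.04 on the log2 scale.

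The CMP arrays, which lie outside the contrast, showed part of the same changes. Dnmt3a-/- minus wild-type CMP was 3.40 for H2-Eb1, 2.64 for Gdf3 and 1.34 for S100a4, each with 3 arrays against 3 that did not overlap. These CMP differences were not tested. The share of all genes without overlap in CMP was not counted, so the lack of overlap has no background to be read against. In wild-type CMP H2-Eb1 was at 8.01, 6.97 and 7.08, and in Dnmt3a-/- CMP at 10.23, 10.73 and 11.28. Alox5 (0.65) and Prss34 (1.47) overlapped between the genotypes. No PR+/- CMP arrays were analysed here, so the interaction has no counterpart in CMP.

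In 4 of 102 groups examined, 1 array stood apart from the other 3, where chance gives about 1 in 20. Ctnnd1 was at 6.50 in PR+/- Dnmt3a-/- replicate 1, against 6.37 to 6.39 in the others. Tubb3, measured by 1 probe set, was at 3.99 on the same array, against 3.16 to 3.27, which is under the background of 3.34. Mcpt8 was at 11.41 in PR+/- Dnmt3a-/- replicate 2, against 11.95 or more in the others. Ms4a2 was at 6.50 in wild-type replicate 3, against 5.47 to 5.63.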

How the results depend on the processing

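The interaction gave 5 genes; the alternatives gave 8 with the median of probe sets, 10 without dim genes, 10 with 16 added to the intensities, 25 with all 19 arrays in 1 fit, 40 with array weights and 0 with the Y-linked covariate. Leaving out 1 array gave 4 to 14, the 14 without PR+/- Dnmt3a-/- replicate 3. For Dnmt3a loss without PR, 101 genes passed, and in the same order of settings 46, 175, 153, 205, 1548 and 19, with 62 without the 4 arrays of high immediate early genes, 4 against a minimum of 1.5-fold, and 17 to 116 without 1 array. By array left out, it was 49 (replicate 1), 50 (replicate 3) and 22 (replicate 4) for wild type and 17, 18 and 59 for Dnmt3a-/- replicates 1, 2 and 3. It was 61 for either PR+/- array and 67 for PR+/- Dnmt3a-/- replicate 4. In PR+/-, where 0 passed, the counts were 1 with the median of probe sets, 3 with brighter probe sets, 4 without dim genes, 5 with 16 added, 21 with all 19 arrays, 3 with array weights, 2 with trend and robust moderation, 1 without the 4 arrays, 3 with the immediate early covariate and 0 to 3 without 1 array. Chosen after seeing the data, leaving out PR+/- Dnmt3a-/- replicates 1 and 2 gave 7, 161 and 2 genes in the 3 contrasts, and leaving out replicates 3 and 4 gave 639, 122 and 191. The cause of these moves was not tested.

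A replicate block for the shared numbers 1 and 2 gave 539 genes in the interaction and 147 in PR+/-. By its construction it rests on PR+/- Dnmt3a-/- replicates 1 and 2, the arrays of high immediate early genes. Over 60 single-gene results and 1736 alternative values none changed sign, 312 lost and 74 gained a call. The median interaction of all genes lay between -0.10 and 0.07.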

Other observations

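Ctsg, a serine protease of primary granules, was at 11.30 to 11.77 in wild type, 11.80 to 11.95 in Dnmt3a-/- and 11.53 and 11.44 in PR+/-. In PR+/- Dnmt3a-/- it was at 7.96, 11.12, 6.59 and 7.56, so replicate 2 was near the other groups and the other 3 arrays were far below all of them. This split does not follow that of the immediate early genes, which were high on replicates 1 and 2. Replicate 2 is the array of that group with a low Y-linked level. The interaction of Ctsg was -3.49 ± 1.10 with all arrays and did not pass (limma adjusted p = 0.230), with all 9 probe sets below 0. Without replicate 2 it was -4.42 ± 0.40 (adjusted p = 0.00160). Leaving out the array that stood apart lowers the spread by construction, so this call is no support for the interaction. The same holds for the call of Ctsg without the 4 arrays of high immediate early genes, which also leaves replicate 2 out. Ms4a3, another gene of granule-forming progenitors, did not share the split, at 10.99, 11.17, 11.93 and 11.83 on the same arrays.

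Chemokine genes also varied from array to array. Ccl3, which attracts monocytes and lymphocytes, was at 9.90 and 10.97 on wild-type replicates 1 and 2 and at 6.45 and 5.47 on replicates 3 and 4. It was at 11.10 and 10.48 on PR+/- Dnmt3a-/- replicates 1 and 2 and at 7.28 and 8.27 on the other 2. The Dnmt3a-/- arrays were at 9.72, 10.03 and 7.07, although none of them had high immediate early genes. The chemokine receptor Ccr1 was at 3.76 to 4.48 in wild type, up to 6.60 in Dnmt3a-/-, 7.24 and 6.47 in PR+/-, and 4.21 to 6.41 in PR+/- Dnmt3a-/-, and the interaction did not pass (adjusted p = 0.165).

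The platelet chemokine Pf4 differed between the backgrounds. It was at 6.16 to 8.68 in wild type, 8.82 to 10.13 in Dnmt3a-/-, 4.54 and 5.62 in PR+/-, and 4.58 to 6.79 in PR+/- Dnmt3a-/-. Whether the PR+/- arrays were processed with the others is not stated in the labels.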
